A study of Mus musculus with 8 samples.

Results

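Voltage-gated sodium and calcium channels are the proteins that carry depolarising current into heart muscle cells, and their subunit genes were followed here in heart RNA of aged mice. The members were all protein-coding genes whose mouse symbol begins with Scn, a number and the letter a or b, or with Cacna, Cacnb or Cacng. This gave 40 genes of the 30153 identifiers measured: 10 sodium pore subunits, 4 sodium channel beta subunits, 10 calcium pore subunits, 4 alpha2delta subunits, 4 calcium channel beta subunits and 8 gamma subunits. The study sequenced polyadenylated RNA from hearts of C57/BL6 mice labelled Haplotype-II, which the series' title describes as overexpressing a human angiotensin receptor. All 8 libraries share that haplotype and are labelled as aged. The 4 control libraries carry no other label, and the 4 western diet libraries are labelled with that diet in addition, a chow high in sugar and fat that is used to model human overnutrition. Sex, exact age, length of feeding, the promoter of the transgene and the time of collection are not in the labels, nor do they say whether the libraries are from different animals. The p-values below therefore describe the spread between these samples.

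A sodium channel of this family is built on a single large pore protein whose brief opening produces the upstroke of the action potential. It is joined by small beta subunits, single-span membrane proteins with an immunoglobulin fold that alter gating and placement at the membrane. A calcium channel has a similar pore protein, to which high-voltage-activated types add an intracellular beta subunit and an extracellular alpha2delta subunit that bring the pore to the surface. In ventricular muscle sodium channels drive the upstroke and fast conduction, and the L-type calcium channel encoded by Cacna1c triggers contraction. T-type channels, encoded by Cacna1g, Cacna1h and Cacna1i, open at more negative voltages and are known from pacemaker and conduction cells.

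Values are in TPM, an abundance that is divided by transcript length and by the library's total, so levels of different genes can be set side by side. TPM keeps no read depth, and the depth of the libraries is therefore unknown. Between 10620 and 11175 genes reached 1 TPM in a library. The 10969 genes that reached 1 TPM in 4 or more libraries were tested with limma on log2(TPM + 1), and fold changes are on that scale, which understates changes of low genes. Of these, 33 passed a Benjamini-Hochberg adjusted p of 0.05, 25 higher and 8 lower with western diet. The split was 31 to 18 after median-of-ratios scaling and 40 to 21 after quantile normalization. Libraries stood apart in ways the labels do not give. The Y-linked gene Eif2s3y ranged from 21.1 to 29.0 TPM over the controls and western diet replicate 4 had 22.3 TPM, while western diet replicates 1 to 3 had 0.0231 TPM or less. Myl7, an atrial myosin light chain, was at 184, 1403 and 335 TPM in control replicates 1 and 3 and western diet replicate 2, and at 1.10 to 2.87 TPM elsewhere. The kidney transcript Kap did not exceed 0.685 TPM in controls and ranged from 7.15 to 72.1 TPM with western diet, highest in replicate 4. The 8 ventricular muscle markers were present in every library. Their summed level was 40734 to 44589 TPM in controls and 33433 to 43524 TPM with western diet. None of the 8 passed a limma unadjusted p of 0.05. Only 1 of the 8 had a positive log2 fold change, and their median was -0.10, where that of all genes tested was 0.06. Of the other cell types listed, smooth muscle markers summed to 187.5 to 218.0 TPM in controls and 207.1 to 278.8 TPM with western diet, and of 6 tested 1 was lower at the adjusted threshold, while 1 was higher and 4 lower at an unadjusted p under 0.05. Acta2, smooth muscle actin, was at 33.4 ± 5.99 TPM in controls and 80.8 ± 29.1 TPM with western diet without overlap (limma adjusted p = 0.0630), while Tagln, Myh11, Pdgfrb and Kcnj8 had lower means. The counts in brackets that follow are at the adjusted threshold. Fibroblast markers summed to 292.2 to 409.0 and 311.2 to 359.2 TPM (0 of 5 changed) and endothelial markers to 114.1 to 139.9 and 129.0 to 146.7 TPM (1 of 4 higher). Macrophage markers summed to 49.9 to 60.9 and 61.1 to 99.3 TPM (0 of 4). At a limma unadjusted p under 0.05, 1 fibroblast marker (Col1a1) and 1 macrophage marker (C1qa) were also higher. Kidney markers summed to 0 to 0.685 and 9.02 to 79.0 TPM (1 of 1 tested higher). That marker, Kap, met the filter only through the western diet libraries.

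Of the 40 members, 12 were high enough to be tested and 28 were not. One member, the sodium channel beta subunit Scn4b, passed the adjusted threshold, and it was higher with western diet. Over all genes tested 0.301% passed, 0.228% higher and 0.0729% lower. At an unadjusted p under 0.05 there were 4 of the 12 members, all higher, Scn4b, Scn4a and Cacna1s among them, where 11.7% of all genes tested passed, 9.2% higher and 2.51% lower. The groups did not overlap for 2 of the 12, Scn4b and Scn4a, both higher, against 6.6% of all genes tested, 4.85% higher and 1.75% lower. Positive log2 fold changes were found for 8 of the 12 members and for 66.4% of all genes tested, and the median was 0.13 over the 12 and 0.06 over all genes tested. The 5 tested sodium channel genes all had positive fold changes, between 0.03 and 0.77, while the 7 tested calcium channel genes lay between -0.44 and 0.45.

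**Figure D1:**
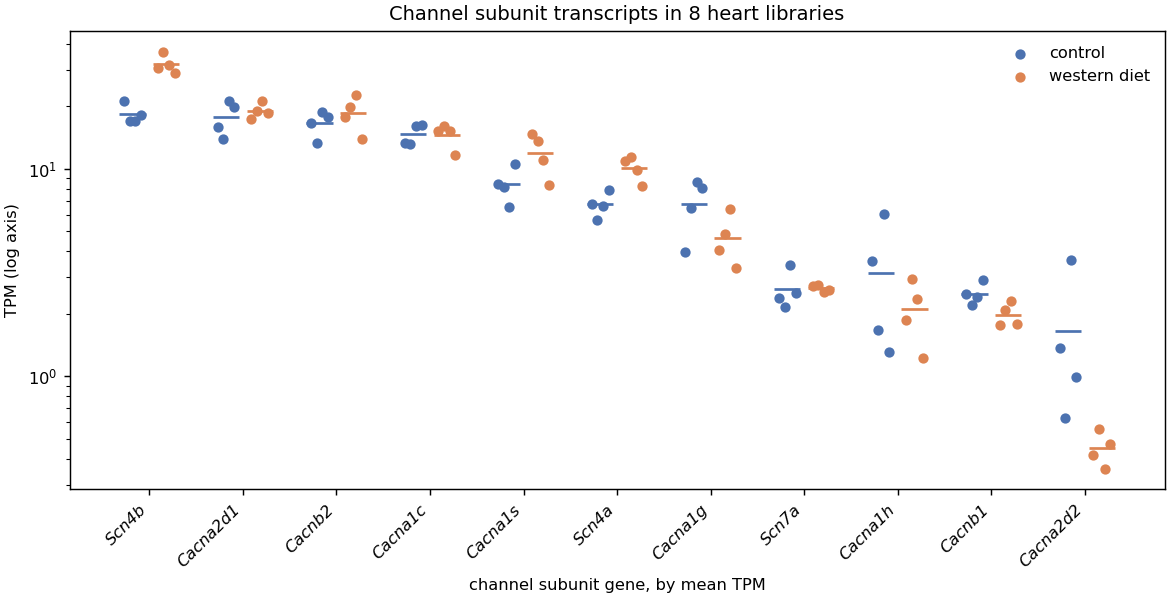
TPM of 11 subunit genes with a mean of at least 1 TPM, on a log axis, for 4 control (blue) and 4 western diet (orange) heart libraries; each point is a library and each line the mean of a group. The western diet points lie above all controls for Scn4b and Scn4a and below them for Cacna2d2, and the groups overlap for the other 8.

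Among the sodium pore subunits, Scn4a (chromosome 11, 106318592 to 106353288 of GRCm38) encodes the sodium channel of skeletal muscle. Its level was 6.78, 5.67, 6.62 and 7.88 TPM in the controls and 10.8, 11.3, 9.81 and 8.25 TPM with western diet. Every western diet library exceeded every control, by the smallest margin in replicate 4. The log2 fold change was 0.51 (SE 0.12, limma adjusted p = 0.126), which did not pass over all genes. With a model term for Y-linked transcripts it was 0.26 (SE 0.17, adjusted p = 0.760), an estimate that rests on western diet replicate 4. The 8 skeletal markers summed to 4.43 to 5.13 TPM in controls and 1.90 to 5.12 TPM with western diet, and their fast myosins Myh1, Myh2 and Myh4 stayed at or below 0.174 TPM in every library. Of the 2 skeletal markers tested none was higher at an unadjusted p under 0.05, and Pvalb was lower at that level. Pvalb met the filter only through the controls, at 1.04 to 1.13 TPM, and was at 0 to 0.788 TPM with western diet. Among those too low to be tested, Tnnt3, fast skeletal troponin T, was higher without overlap, at 0.219 to 0.493 TPM in controls and 0.4995 to 1.215 TPM with western diet, the direction of Scn4a, and Mylpf was lower without overlap. The part of skeletal muscle RNA in the Scn4a values was not tested.

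Scn7a, a sodium channel relative associated with sodium sensing in glia and other non-muscle cells, overlapped between groups, at 2.62 ± 0.556 TPM in controls and 2.66 ± 0.101 TPM with western diet (SD, n = 4 per group; log2 fold change 0.03, 95% interval -0.24 to 0.29). After median-of-ratios scaling or quantile normalization the sign was negative, at -0.03 and -0.04.

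The 7 sodium pore subunits Scn1a, Scn2a, Scn3a, Scn8a, Scn9a, Scn10a and Scn11a are best known from neurons, and none exceeded 0.408 TPM in any library. That highest value belonged to Scn10a in control replicate 1. Scn9a lies 38463 bases from Scn7a on chromosome 2 and did not exceed 0.0253 TPM, so these close neighbours differed widely in level. Scn8a was listed at 0 to 0.0168 TPM in controls and at 0.0225 to 0.170 TPM with western diet. Its groups did not overlap, but at these levels no fold change is given, and it is named here because its values were seen. The 10 neuron and Schwann cell markers summed to 5.004 to 9.39 TPM in controls and 3.99 to 5.55 TPM with western diet, with Th at 0 in all libraries but control replicate 4 (0.138 TPM).

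Among the beta subunits Scn4b carried the clearest difference of the whole family. Scn4b (ENSMUSG00000046480, chromosome 9, 45138395 to 45154152, plus strand) encodes a beta subunit that binds the pore protein through a disulfide bond. It was at 21.3, 16.9, 16.9 and 18.2 TPM in control replicates 1 to 4 and at 30.5, 36.5, 31.4 and 29.0 TPM in western diet replicates 1 to 4. The lowest western diet library stood well above the highest control. Scn4b rose from 18.3 ± 2.06 to 31.8 ± 3.24 TPM (SD, n = 4 per group), a ratio of means of 1.74. The log2 fold change was 0.77 (SE 0.10, 95% interval 0.54 to 0.99, limma adjusted p = 0.0153). In bulk heart RNA, a change in the share of cells that express Scn4b and a change in its RNA per cell cannot be told apart. Every control had Y-linked transcripts, while western diet replicates 1 to 3 had next to none. Kap was higher in every western diet library than in any control. With these libraries, a part of sex or of kidney RNA in the Scn4b difference cannot be told apart from the diet.

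The size of the Scn4b difference moved little between settings while its adjusted p did. Its log2 fold change was 0.70 to 0.84 when each library was left out in turn, but the adjusted p was 0.0722, 0.0577 and 0.0537 without control replicates 2, 3 and 4. With a term for Y-linked transcripts the log2 fold change was 0.64 (SE 0.16, limma adjusted p = 0.184), and without the 3 libraries with atrial transcripts it was 0.75 (SE 0.14, adjusted p = 0.152). Western diet replicate 4, the western diet library with Y-linked transcripts and the highest Kap, had the lowest Scn4b of its group. The estimate with the term for Y-linked transcripts rests on that library. Among the 11 conduction system markers, 6 were tested, and 3 of these had positive log2 fold changes, Tbx3 (0.06), Irx3 (0.10) and Kcne1 (0.24). Those of Cntn2, Hcn4 and Gja5 were negative. Cntn2, a marker of Purkinje fibres, fell to 0.661 ± 0.296 TPM from 2.96 ± 0.434 TPM in controls (limma adjusted p = 0.00527). Of the western diet libraries only replicate 1, at 1.02 TPM, reached 1 TPM, so Cntn2 met the filter through the controls. The pacemaker channel Hcn4 was at 2.50 ± 0.304 TPM in controls and 1.81 ± 0.276 TPM with western diet (limma adjusted p = 0.309). That list summed to 16.8 to 32.3 TPM in controls and 13.4 to 21.1 TPM with western diet, with Isl1 at 0 in 7 libraries. These ranges overlap, and the part of such cells in the Scn4b result was not tested.

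The beta subunits Scn2b and Scn3b were at 0.0621 to 0.191 TPM and 0.211 to 0.700 TPM and were not tested. Scn2b is the nearest neighbour of Scn4b, 8325 bases before it on the same strand, and encodes the beta subunit that is also disulfide-linked. Tmprss4, the neighbour on the other side, 18574 bases away, reached at most 0.0582 TPM. The genes on either side of Scn4b were almost unexpressed in these hearts.

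**Figure D2:**
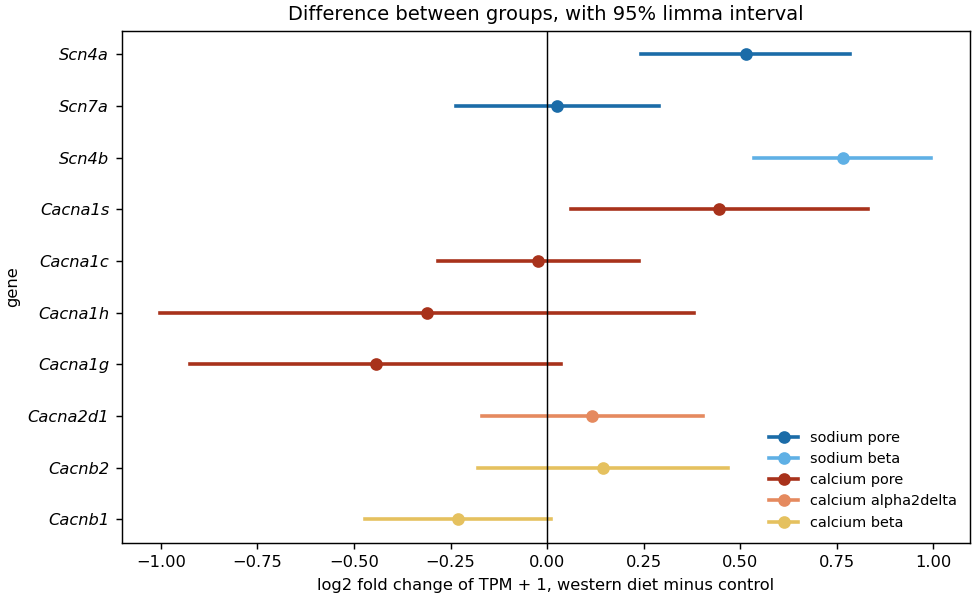
Log2 fold change of TPM + 1 (western diet minus control) of 10 tested subunit genes, by class; points are limma estimates and lines 95% intervals. Scn4b is at 0.77, with an interval of 0.54 to 0.99, and the Cacna1c estimate of -0.02 lies near the line at 0.

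The calcium pore subunits were led by Cacna1c (chromosome 6), the L-type channel of heart and smooth muscle. It was at 13.3, 13.2, 16.1 and 16.2 TPM in controls and at 15.2, 15.98, 15.2 and 11.7 TPM with western diet. The groups overlapped throughout, with western diet replicate 4 the lowest library. The log2 fold change was -0.02 (SE 0.12, 95% interval -0.28 to 0.24). With the term for Y-linked transcripts it was -0.31 (SE 0.15), outside that interval, an estimate that rests on western diet replicate 4.

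Cacna1s (chromosome 1, 136052750 to 136119822), the L-type channel that serves as voltage sensor in skeletal muscle, was second. Its values were 8.47, 8.14, 6.50 and 10.5 TPM in controls and 14.8, 13.6, 11.0 and 8.34 TPM with western diet. Western diet replicates 1, 2 and 3 lay above all controls, and replicate 4 lay within the control range. The log2 fold change was 0.45 (SE 0.17, limma unadjusted p = 0.0266, adjusted p = 0.354). With the term for Y-linked transcripts it was 0.01 (SE 0.22), since replicate 4, the western diet library that shares those transcripts with the controls, then sets the estimate. Cacna1s and Scn4a, the skeletal muscle types of their families, both had replicate 4 as their lowest western diet library. So did Scn4b, Cacna1c, Cacna1g, Cacna1h and Cacnb2, while Cacna2d1, Cacna2d2, Cacnb1 and Scn7a did not. A predicted gene, Gm37759, shares 1309 exon bases with Cacna1s on the opposite strand, and opposite-strand genes also overlap exons of Cacnb2, Cacna1h, Cacna2d2 and Cacnb1 over shorter stretches. Whether the deposited values separate strands is not given in the sources used here.

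The T-type genes Cacna1g and Cacna1h had lower means with western diet. Cacna1g was at 3.95, 6.43, 8.65 and 8.05 TPM in controls and at 4.03, 4.87, 6.36 and 3.32 TPM with western diet. Control replicate 1 lay among the western diet libraries and the other controls lay above the highest of them (log2 fold change -0.44, SE 0.22, limma adjusted p = 0.463). With the term for Y-linked transcripts, which sets western diet replicate 4 alone against the controls, the log2 fold change of Cacna1g was -0.80 (SE 0.33). Cacna1h was at 3.61, 1.68, 6.02 and 1.31 TPM in controls and at 1.87, 2.95, 2.35 and 1.23 TPM with western diet (log2 fold change -0.31, SE 0.31, limma adjusted p = 0.754). Its highest libraries were control replicates 3 and 1 and then western diet replicate 2, the same 3 libraries in which Myl7 was high. Without these 3 libraries the log2 fold change of Cacna1h was 0.16, and with the term for Y-linked transcripts it was -0.75 (SE 0.49).

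Within the calcium pore class, Cacna1c made up 41.0% to 43.8% of the summed TPM in controls and 40.3% to 46.5% with western diet. The share of Cacna1s was 16.5% to 28.1% in controls and 30.8% to 39.1% with western diet, and that of Cacna1g was 13% to 22% and 10.7% to 17.9%. The class sum was 34.4 ± 4.72 and 34.2 ± 6.23 TPM. The western diet libraries thus held a larger Cacna1s share at a similar mean class sum, as a description with no test. In western diet replicate 4 the class sum was 25.1 TPM, below every control, and its Cacna1s level lay within the control range. Cacna1a, known as the P/Q-type channel of nerve terminals, was at 0.413 to 1.73 TPM. Cacna1b, Cacna1d, Cacna1e, Cacna1f and Cacna1i did not exceed 0.558 TPM in any library. Cacna1d, the L-type channel of the sinus node and atria, had its highest value, 0.304 TPM, in control replicate 3.

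**Figure D3:**
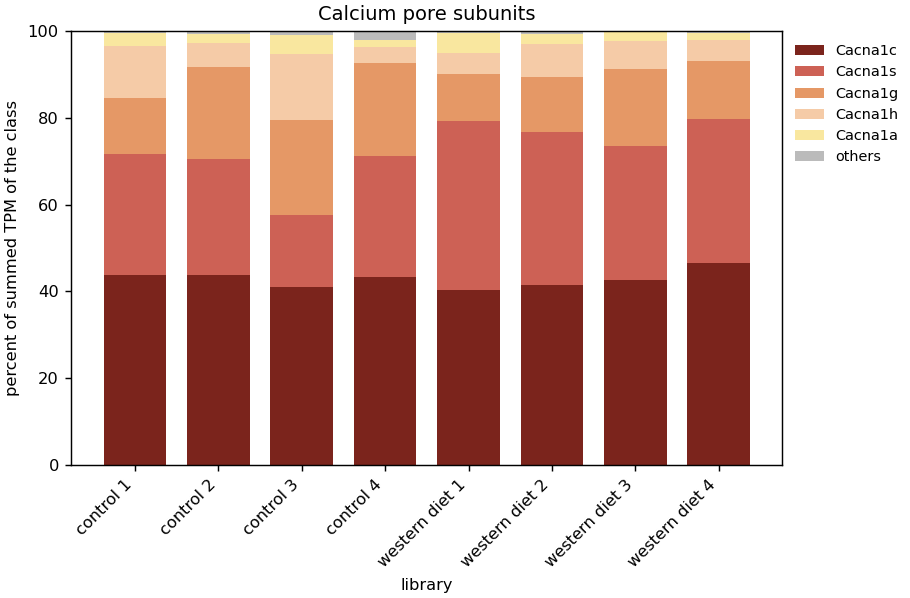
Share of each gene in the summed TPM of the 10 calcium pore subunits in each library; genes with a mean share under 1% are grouped as others. The Cacna1s share is 16.5% to 28.1% in controls and 30.8% to 39.1% with western diet.

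Accessory calcium channel subunits showed no difference past the threshold. Cacna2d1, the main alpha2delta subunit of ventricle, was at 15.8, 13.9, 21.1 and 19.9 TPM in controls and 17.4, 19.0, 21.3 and 18.5 TPM with western diet (log2 fold change 0.12, 95% interval -0.17 to 0.40, limma adjusted p = 0.779). Cacnb2, the main cardiac beta subunit, was at 16.5, 13.3, 18.7 and 17.7 TPM in controls and 17.7, 19.8, 22.6 and 13.97 TPM with western diet (log2 fold change 0.14, 95% interval -0.18 to 0.47, limma adjusted p = 0.757). The groups overlapped for both genes. With the term for Y-linked transcripts the sign for Cacnb2 was negative, at -0.22 (SE 0.19), an estimate that rests on western diet replicate 4. Cacnb1, the beta subunit of skeletal muscle, was at 2.48, 2.21, 2.40 and 2.89 TPM in controls and 1.76, 2.08, 2.30 and 1.79 TPM with western diet. Only western diet replicate 3 reached into the control range (log2 fold change -0.23, SE 0.11, limma unadjusted p = 0.0580, adjusted p = 0.443). Cacnb1 did not have the direction of the skeletal muscle pore genes Cacna1s and Scn4a, which were higher with western diet. Cacnb3 and Cacnb4 did not exceed 0.375 TPM. Within a library the ratio of Cacnb2 to Cacna1c was 1.12 ± 0.101 in controls and 1.27 ± 0.146 with western diet, and that of Cacna2d1 to Cacna1c was 1.20 ± 0.107 and 1.33 ± 0.205 (SD, n = 4 per group). Both ratios overlapped between groups (two-sided exact permutation test, a test added after the values were seen, p = 0.143 and 0.314, adjusted over the 2 ratios 0.286 and 0.314).

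Cacna2d2 (chromosome 9, 107399612 to 107529343), an alpha2delta subunit also found in atria and brain, was not tested because only 2 libraries reached 1 TPM. It was at 1.36, 0.631, 3.62 and 0.992 TPM in controls and at 0.417, 0.559, 0.359 and 0.473 TPM with western diet. All western diet libraries lay below all controls. With no filter on low values, the log2 fold change was -0.75 (SE 0.29, limma adjusted p = 0.508), which did not pass. The atrial markers moved with it in part. Their summed level was 911, 105, 6295 and 148 TPM in control replicates 1 to 4 and 83.6, 1583, 112 and 181 TPM in western diet replicates 1 to 4. The highest Cacna2d2 value was in control replicate 3, which also held the most atrial RNA. In the libraries with low Myl7, Cacna2d2 was at 0.631 and 0.992 TPM in controls and at 0.359 to 0.473 TPM with western diet. Control replicate 3 held the highest value of 11 of the 39 members above 0 in any library, among them Cacna2d2, Cacna2d3, Cacna1d, Cacna1g, Cacna1h and Scn3b. Of these 11, 8 were too low to be tested. Western diet replicate 2 and control replicate 1, also with atrial transcripts, held the highest value of 8 and 3 members. Control replicate 4, where Myl7 was low, held that of 7. The same count over all genes is not given here.

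**Figure D4:**
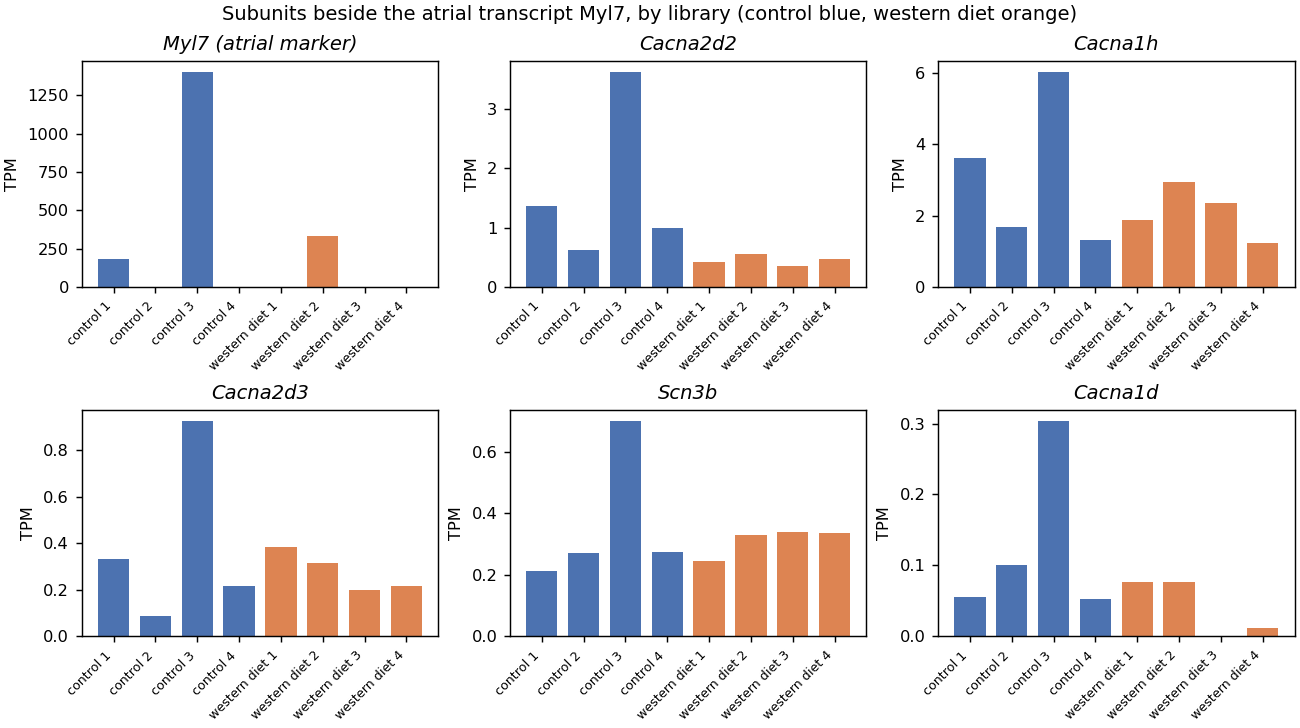
TPM by library of the atrial marker Myl7 and of 5 subunit genes whose highest value is in control replicate 3 (bars; control blue, western diet orange; each panel has its own axis from 0). Cacna2d2 reaches 3.62 TPM in control replicate 3 and stays between 0.359 and 0.559 TPM with western diet. The 5 genes are from the 11 members that are highest in that library, so their match with Myl7 there was fixed by the choice. Cacna1g is among the members not shown.

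None of the 8 gamma subunits could be tested. Cacng6 and Cacng7 were the highest and are named here because their values were seen, at 0.318 to 1.19 TPM and 0.647 to 0.998 TPM. Cacng6, a relative of the skeletal muscle gamma subunit, was at 0.835, 1.19, 0.749 and 0.852 TPM in controls and at 0.825, 0.583, 0.341 and 0.318 TPM with western diet. Western diet replicate 1 lay within the control range and the other 3 lay below it. Cacng7, which is also known to regulate glutamate receptors in brain, overlapped between groups at 0.772 ± 0.119 and 0.805 ± 0.150 TPM. Cacng1, Cacng2, Cacng4, Cacng5 and Cacng8 did not exceed 0.163 TPM and Cacng3 was listed at 0 in all libraries. Cacng1, the skeletal muscle gamma subunit, had the higher mean with western diet, unlike Cacng6. It was at 0 to 0.0778 TPM in controls and 0.0362 to 0.153 TPM with western diet, with overlap, near the floor. Over the whole family, 25 of the 40 members stayed below 1 TPM in every library.

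Proteins that bind or regulate these channels did not pass as single genes in either list. Of 16 sodium channel partners 13 were tested, and by limma 0 passed the adjusted threshold while 1 was higher and 1 lower at an unadjusted p under 0.05. Gja1, the gap junction protein connexin 43 of the intercalated disc, was at 129, 117, 159 and 167 TPM in controls and 94.8, 103, 137 and 107 TPM with western diet (log2 fold change -0.37, SE 0.14, limma adjusted p = 0.346), with overlap between the groups. Slmap, a membrane-associated protein, was at 78.2 ± 11.6 and 83.5 ± 14.3 TPM. Cav3, which encodes caveolin 3 and is named here because its groups did not overlap, was at 45.1 to 49.8 TPM in controls and 40.9 to 44.99 TPM with western diet (log2 fold change -0.15, limma adjusted p = 0.492). The median log2 fold change of the 13 was 0.06, as was that of all genes tested.

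Of 19 calcium channel partners 13 were tested, and by limma 0 passed either the adjusted threshold or an unadjusted p under 0.05. Jph2, junctophilin, which holds the calcium channel close to the sarcoplasmic reticulum, was at 107 ± 8.70 and 125 ± 17.7 TPM (limma adjusted p = 0.488). Prkaca, the catalytic subunit of protein kinase A, was at 111 ± 3.62 and 108 ± 10.2 TPM. Rrad, a small GTPase that restrains the L-type channel, ranged from 73.7 to 123 TPM in controls and from 27.6 to 120 TPM with western diet, the lowest in replicate 1. Its log2 fold change was -0.36 (SE 0.36), and 0.06 without that library. Akap5, an anchor of protein kinase A at the channel, was too low to be tested and is named here because its values were seen: it was at 0.741 to 1.06 TPM in controls and 0.166 to 0.658 TPM with western diet, with no overlap. Among related channels outside the family Tpcn1, an endolysosomal channel, was at 8.23 ± 0.953 and 9.32 ± 0.828 TPM (limma adjusted p = 0.598), while Tpcn2 did not exceed 0.355 TPM and the sodium leak channel Nalcn did not exceed 0.206 TPM.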

How the data were processed

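The authors deposited 1 table of gene-level TPM for 8 heart libraries. Per the submitters' processing notes kallisto, DESeq2 and GRCm38 were used, without versions or roles; the annotation release is not given in the sources used here. Columns summed to 941318 to 953448. Columns were matched to samples by title and groups taken from the labels; replicates are numbered in accession order. Symbols, biotypes and coordinates (1-based) came from GENCODE vM21 on GRCm38, which named 29811 of 30153 identifiers. limma 3.58.1 in R 4.3.3 was fitted to log2(TPM + 1) of 10969 genes with the group as the only term and an intensity trend; adjusted p are Benjamini-Hochberg over all of them, two-sided. Libraries with Y-linked transcripts had at least 1 TPM of Eif2s3y, and those with atrial transcripts at least 100 TPM of Myl7. All controls had Y-linked transcripts, so estimates from settings that use these transcripts set western diet replicate 4 alone against the controls. The fit was also run on simulated data with known changes. These data held none of the Y-linked, atrial or kidney differences between libraries, and the outcome is not used here. Members named with values had a mean of at least 1 TPM, an unadjusted p under 0.05, or were Scn4b, Cacna1c, Cacnb2 or Cacna2d1; partners had an unadjusted p under 0.05, filled to 3 by mean TPM. Others with values were chosen after these were seen. Some genes that meet this rule are not reported here, though counts over the family include them. Markers of smooth muscle, fibroblasts, endothelium, macrophages and kidney were also listed. Members, lists and settings were chosen with earlier results of these data known. Python 3.11.15 made the summaries.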

Additional observations from a re-analysis of the deposited data

Results flagged for a closer look

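In 89 groups of 4 libraries, over the members and partners reported, 10 had a library set apart from the others by a gap above the 95% critical value of Dixon's ratio. Chance gives about 1 in 20 where values vary continuously, which does not hold for the 7 values below that stand beside libraries at or near 0 and exceed the limit by construction. None of them concerned a tested gene. Cacna1b reached 0.558 TPM in control replicate 4, with 0.00541 to 0.0494 TPM in the rest of the controls. Scn3b was at 0.700 TPM in control replicate 3 against 0.211 to 0.274 TPM in the other controls. In the western diet group it was at 0.246 TPM in replicate 1 against 0.327 to 0.339 TPM in the others. Cacnb3 was at 0.341 TPM in control replicate 1 and at or near 0 in the other controls. The remaining 6 were single values beside 3 libraries listed at 0: Cacng1 (0.0778 TPM), Cacng5 (0.0119 TPM), Scn9a (0.0253 TPM) and Scn11a (0.00737 TPM) in control replicate 3, Cacng8 (0.0152 TPM) in control replicate 1 and Cacng5 (0.0127 TPM) in western diet replicate 2. Of the 10, 5 were in control replicate 3, the library with the most atrial RNA, and 4 of these 5 stand beside zeros; the part of atrial RNA was not tested.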

How the results depend on the processing

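The count of genes past the threshold, 33, was 5 with no filter, 15 with a mean of at least 5 TPM, 61 after quantile normalization, 51 without mitochondrially encoded genes, 108 with array weights, 54 with the term for Y-linked transcripts, 76 in the 5 libraries with such transcripts alone, 5 without libraries with atrial transcripts, and 8 to 95 with 1 library left out. The count of channel members past it, 1, was 0 with no filter, with the term for Y-linked transcripts, in the libraries with Y-linked transcripts alone, and without libraries with atrial transcripts; it was 0 to 1 with 1 library left out, 0 without control replicates 2, 3 or 4. In the libraries with Y-linked transcripts alone the adjusted p of Scn4b was 0.134, and with no filter 0.0958. Of 317 alternative log2 fold changes of 16 named genes, 294 kept direction and side of the threshold, 7 were of Scn4b, no longer past it, and 16 changed sign, none of a called gene. Cacnb2 was -0.22 with the term and in those libraries alone; Rrad was 0.0762 in both, 0.0606 without western diet replicate 1, and -0.631 to 0.0606 with 1 library left out. Cacna1c was -0.31 with the term and in those libraries alone, 0.0399 with array weights and -0.0694 to 0.0720 with 1 library left out. Cacna1h was 0.16 and Slmap -0.0128 without libraries with atrial transcripts. Scn7a was -0.0286 after median-of-ratios scaling, -0.0406 after quantile normalization and -0.0362 to 0.13 with 1 library left out, and Prkaca -0.0927 to 0.00329 with 1 left out. Apart from fewer libraries or other genes tested, the cause was not tested. No paired analysis was possible because the replicate numbers come from accession order and pair nothing. TPM keeps no depth, so no detection limit is given.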
